A study of Mus musculus with 6 samples.

Results

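The long noncoding RNA (lncRNA) promoters described here are 2011 regions of open chromatin out of 112672 that ATAC-seq detected in murine MLL-AF9 leukemia stem cells (LSCs). Peaks of the 6 deposited lists on chromosomes 1 to 19 and X were merged into regions. A region was kept when its midpoint lay within 1000 bp of a start of a lincRNA, antisense, processed_transcript, sense_intronic or bidirectional_promoter_lncRNA gene of GENCODE M21. It also had to lie more than 1000 bp from every protein-coding start, which removed 1529 of 3540 regions near a lncRNA start. Each region takes the name of the lncRNA gene whose start is nearest. The 2011 regions lie at 1720 of the 9568 annotated lncRNA genes (18%).

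A lncRNA is a transcript of RNA polymerase II that carries no long open reading frame and is usually capped, spliced and kept at a low level. Its promoter binds transcription factors and is depleted of nucleosomes like that of a protein-coding gene, but it lies less often in a CpG island, and many lncRNA starts coincide with enhancers. In blood cells, lncRNAs include hosts of microRNAs and small nucleolar RNAs, RNAs that silence imprinted genes or the X chromosome, and transcripts that lie beside genes for regulators of differentiation.

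In ATAC-seq, the Tn5 transposase cuts accessible DNA and tags it with adapters, so that reads pile up over open chromatin. The study used L-GMP cells, leukemic cells that resemble granulocyte-macrophage progenitors and are labelled AML LSCs of wild-type genotype, from the mouse model of acute myeloid leukemia made by retroviral expression of MLL-AF9. All samples were grown with mouse IL3 and sorted before tagmentation, 3 as Control and 3 with mycophenolate mofetil (MMF), an inhibitor of inosine monophosphate dehydrogenase and so of guanine nucleotide synthesis. The labels give the MMF treatment as 24 h, while the methods and a figure legend of the study differ in dose and time. The oncogene was delivered by a retrovirus and the cells were kept in culture, and the labels do not say whether the replicates were separate cultures or animals. The p-values therefore measure the spread between these samples.

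The Control lists held 58403 to 63802 peaks and the MMF lists 80774 to 86437. The median peak rested on 14 to 19 reads over its summit. Among promoters of marker genes fixed for this check, 5 of 10 myeloid genes had a peak in every list, with a summed fold enrichment of 45.3 to 52.3 in Control and 63.7 to 68.0 in MMF, and Mpo and Prtn3 had none. All 7 T cell genes were without a peak in every list, while 1 of 6 B cell, 1 of 6 erythroid, 2 of 4 megakaryocyte and 2 of 6 endothelial and stromal genes had one in every list. The summed fold enrichment of the B cell genes, of which 4 of 6 had no peak, was 7.61 to 11.3 in Control and 12.2 to 16.1 in MMF, also without overlap, while the ranges of the erythroid, megakaryocyte and endothelial and stromal genes overlapped between groups. The part of these marker differences in the results was not tested. More open cells and more opening per cell cannot be told apart in these bulk samples.

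The DNA at the centre of the regions that changed most clearly is shown first, as 200 bp of the plus strand of GRCm38 around the strongest summit. These 6 regions had the smallest adjusted p among those called higher with MMF. Capitals mark matches, on either strand, to short consensus letters of transcription factors.
Gm47409 (chr9:89637522-89637721): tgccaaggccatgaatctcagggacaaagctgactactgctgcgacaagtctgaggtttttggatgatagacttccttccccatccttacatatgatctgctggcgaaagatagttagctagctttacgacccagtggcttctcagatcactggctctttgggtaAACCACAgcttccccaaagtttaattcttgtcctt
Gm44507 (chr7:98415568-98415767): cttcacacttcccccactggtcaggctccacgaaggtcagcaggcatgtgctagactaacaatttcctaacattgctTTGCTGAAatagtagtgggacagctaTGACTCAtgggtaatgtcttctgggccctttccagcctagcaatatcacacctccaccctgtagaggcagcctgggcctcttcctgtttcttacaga
Gm48061 (chr10:44589385-44589584): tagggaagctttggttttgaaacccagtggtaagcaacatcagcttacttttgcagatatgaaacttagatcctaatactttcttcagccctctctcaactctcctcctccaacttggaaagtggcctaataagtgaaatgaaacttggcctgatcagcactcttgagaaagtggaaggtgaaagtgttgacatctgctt
Gm48550 (chr13:53969532-53969731): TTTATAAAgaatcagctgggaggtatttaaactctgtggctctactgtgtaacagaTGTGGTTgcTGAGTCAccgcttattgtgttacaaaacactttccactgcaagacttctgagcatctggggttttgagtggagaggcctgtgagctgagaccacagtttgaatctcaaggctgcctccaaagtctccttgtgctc
Gm22000 (chr11:104565281-104565480): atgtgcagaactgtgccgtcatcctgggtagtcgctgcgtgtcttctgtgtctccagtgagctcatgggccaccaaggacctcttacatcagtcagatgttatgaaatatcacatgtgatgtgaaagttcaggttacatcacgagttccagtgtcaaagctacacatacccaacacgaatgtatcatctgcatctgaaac
2310040G07Rik (chr5:76929237-76929436): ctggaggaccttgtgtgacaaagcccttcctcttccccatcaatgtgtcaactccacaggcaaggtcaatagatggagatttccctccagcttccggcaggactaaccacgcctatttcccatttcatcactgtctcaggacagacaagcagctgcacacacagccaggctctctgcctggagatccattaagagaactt
Gm47409 held 1 RUNX match, and Gm44507 held a C/EBP match followed by an AP-1 match. Gm48550 held an AP-1 match beside a RUNX match on the minus strand, and TATA letters at its left end. Gm48061, Gm22000 and 2310040G07Rik held no match to any motif searched. The next 3 regions had the smallest adjusted p among those called lower with MMF, with capitals of the same meaning.
Gm5533 (chr1:181853142-181853341): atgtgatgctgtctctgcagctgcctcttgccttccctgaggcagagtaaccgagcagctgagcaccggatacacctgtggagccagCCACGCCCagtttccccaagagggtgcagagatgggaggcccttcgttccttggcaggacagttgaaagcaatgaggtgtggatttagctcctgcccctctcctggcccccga
AC166748.2 (chr19:8252140-8252339): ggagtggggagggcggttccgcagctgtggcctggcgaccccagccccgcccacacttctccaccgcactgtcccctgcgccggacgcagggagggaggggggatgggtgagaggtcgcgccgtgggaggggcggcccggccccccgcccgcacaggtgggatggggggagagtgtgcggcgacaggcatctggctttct
Gm33524 (chr14:70057049-70057248): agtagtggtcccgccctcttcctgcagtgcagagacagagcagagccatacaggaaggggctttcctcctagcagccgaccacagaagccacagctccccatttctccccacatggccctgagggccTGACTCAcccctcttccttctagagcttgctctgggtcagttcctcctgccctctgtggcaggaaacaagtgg
Gm5533 held a KLF match, Gm33524 an AP-1 match, and AC166748.2 none. The last 3 regions are all those that were both CpG-rich and called lower, and here the capitals mark CG dinucleotides.
Gm26542 (chr11:50236718-50236917): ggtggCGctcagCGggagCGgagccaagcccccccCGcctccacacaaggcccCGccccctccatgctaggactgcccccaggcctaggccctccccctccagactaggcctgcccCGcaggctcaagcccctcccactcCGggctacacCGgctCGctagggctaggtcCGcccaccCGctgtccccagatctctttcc
Gm48435 (chr10:121351338-121351537): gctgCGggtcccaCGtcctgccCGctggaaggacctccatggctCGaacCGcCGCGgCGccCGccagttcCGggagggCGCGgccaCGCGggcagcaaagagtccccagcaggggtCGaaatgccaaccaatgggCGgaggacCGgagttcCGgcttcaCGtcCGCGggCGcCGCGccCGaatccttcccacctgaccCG
Zmiz1os1 (chr14:25457715-25457914): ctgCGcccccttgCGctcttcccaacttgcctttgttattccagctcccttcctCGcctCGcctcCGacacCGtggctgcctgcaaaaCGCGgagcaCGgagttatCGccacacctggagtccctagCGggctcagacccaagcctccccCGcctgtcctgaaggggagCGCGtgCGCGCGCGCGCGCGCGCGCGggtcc
These windows held 11, 26 and 24 CG dinucleotides, and that of Zmiz1os1 ended in a CG repeat. Only Gm44507, Gm5533 and Zmiz1os1 of the 12 had an annotated start of the lncRNA inside the window shown.

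The regions differed widely in how regularly they were open. A peak was present in all 6 lists at 870 of the 2011 regions (43.3%), called shared here, and in a single list at 441 (21.9%). The shared portion was 36.5% of all regions, 70.3% of the 15903 regions at protein-coding starts and 30.7% of the 94758 regions over 1000 bp from both kinds of start. Shared lncRNA promoters were wider, with a median of 584 bp against 352 bp over all 2011, and their summits were closer to the start, at a median of 222 bp against 328 bp. An annotated start lay inside 61.5% of the shared regions and 41% of all. Of the 1720 genes, 837 had a shared region, and 262 had more than 1 region, with 4 at 2410017I17Rik.

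The annotation places 649 of the 2011 regions inside a protein-coding gene and 119 over a coding exon. lincRNA genes, which lie between coding genes, gave 1152 regions. Antisense genes, which run against a coding gene, gave 588, processed_transcript genes 216, sense_intronic genes 50 and bidirectional promoters 5. At the limit of the 1000 bp rule, 55 of 157 regions between 900 and 1000 bp from a start were shared, as were 40 of 121 between 1000 and 1100 bp just outside it. A further copy in the genome, at least 90 bp long and at least 95% identical, was found for the centre of 119 regions (5.92%), so reads there may come from more than 1 place.

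More lncRNA promoters had a peak with MMF than without. They numbered 1211, 1182 and 1122 in Control replicates 1 to 3 and 1544, 1500 and 1387 in MMF replicates 1 to 3, and every MMF list was above every Control list. The means were 1172 ± 45.4 and 1477 ± 81.0 (SD, n = 3 each). An exact two-sided permutation test gave p = 0.1, which is as low as 3 against 3 samples can go. As a share of all regions in a list, however, lncRNA promoters made up 1.97%, 1.98% and 1.99% in Control and 1.84%, 1.81% and 1.78% in MMF (exact permutation p = 0.1). The longer MMF lists thus held relatively fewer of them, in all 3 samples.

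Presence of a peak in all 3 MMF lists and in no Control list was counted as a gain, and the reverse as a loss. Gained lncRNA promoters numbered 91 (4.53%), where 6.01% of all regions were gained, and 2 were lost (0.0995%), where 0.182% of all were. These counts carry the difference in list length. When every list was cut to its 58403 peaks of lowest p, 21 lncRNA promoters were gained and 21 were lost. Leaving out 1 list, which relaxes the rule, gave 108 to 155 gained, the highest without MMF replicate 3, and 3 to 7 lost. The shares over all regions were not computed for the cut lists or with 1 list left out. These counts therefore cannot show whether lncRNA promoters differ from other regions.

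**Figure D1:**
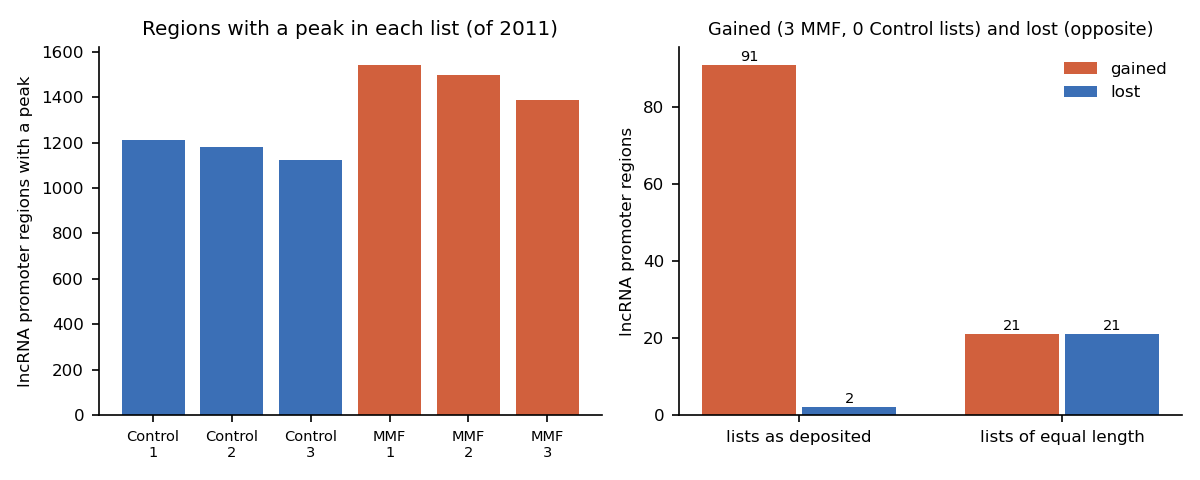
Number of lncRNA promoter regions with a peak in each list (left, bars, 3 Control and 3 MMF replicates) and number gained or lost in the lists as deposited and in lists of equal length (right, bars). All 3 MMF bars, at 1387 to 1544, stand above the Control bars, at 1122 to 1211, and the gained and lost counts, 91 and 2 as deposited, are both 21 at equal length. The share over all regions at equal length was not computed.

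Gained promoters were weak. Fold enrichment is the ratio of summit reads to local background, with 1 added to each. At gained promoters its mean over the MMF lists had a median of 5.53 and ran from 3.72 to 11.1, against a median of 10.1 at shared lncRNA promoters. They rested on a median of 11 summit reads, 28 of the 91 held a start, and 3 were CpG-rich. The strongest lay in an exon of Gm47059 (chr9:120259845-120260223), with fold enrichments of 11.5, 13.4 and 8.35 in MMF replicates 1 to 3. Gm31583 (chr16:24089888-24090706), an intergenic region 101445 bp from the start of Bcl6, a transcriptional repressor of B cells, had 8.90, 9.97 and 10.1.

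The region at Gm16291 (chr15:39797416-39797980) sits in an intron of Dpys, which encodes a pyrimidine-degrading enzyme, and had 10.4, 7.62 and 6.56 in the MMF lists. 1700057H21Rik (chr2:51439102-51439736), intergenic, had 8.47, 8.79 and 7.04. Gm33447 (chr13:97376106-97376476), with the peak over its own exon, had 8.90, 7.62 and 7.75. Of these 6 the least even was Gm43154 (chr6:31664519-31664755), at 12.1, 5.28 and 5.96. Both lost promoters were weak as well. Gm43305 (chr14:54297122-54297326), whose centre has further copies in the genome, had 5.78, 6.50 and 5.55 in the Control lists, and Gm16214 (chr9:42022208-42022623), over an exon of the sorting receptor gene Sorl1, had 5.21, 4.73 and 6.17.

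At the 870 shared promoters the height of the peaks could be compared. The median fold enrichment was 9.11, 8.96 and 8.64 in Control replicates 1 to 3 and 10.8, 10.2 and 9.66 in MMF replicates 1 to 3. Over all shared regions, too, the median fold enrichment was higher in every MMF sample than in every Control sample, though not at CpG-rich coding promoters (13.4 in Control and 13.3 in MMF), so log2 fold enrichments were quantile-normalised over all 41123 shared regions, and a difference below is the MMF minus Control log2 difference on that scale. Each difference is therefore relative to the other shared regions, and the sample values are printed as deposited. Replicates of 1 group correlated at a Pearson r of 0.824 to 0.864 across the 870 regions, a description only, since the regions of a sample share its library.

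With MMF, 29 shared lncRNA promoters were called higher (3.33%) and 15 lower (1.72%) at an adjusted p of 0.05 in limma with Benjamini-Hochberg adjustment over all shared regions. Over all 41123 shared regions, 3.92% were called higher and 1.34% lower. The lncRNA promoters thus stood near the background in both directions. Their median difference was −0.078, with 339 above 0 and 531 below, and that of all shared regions was −0.040. They lay between the 11177 shared promoters of protein-coding genes (median −0.154, 41 higher and 236 lower) and the 29076 shared regions away from both kinds of start (median 0.034, 1541 higher and 301 lower).

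The split of calls depended on the scale. With median centring in place of quantile normalisation, 30 were higher and 48 lower, so the share of calls that were higher went from 65.9% to 38.5%, with nearly as many higher calls and more lower ones. Of all shared regions, 4.39% were then higher and 6.6% lower. On normal scores of the rank in the whole list 50 were higher and 6 lower (89.3% of calls higher), where 7.75% and 0.233% of all shared regions were. On log2 summit reads per background it was 61 and 223 (21.5%), where 8.77% of all were higher and 25.3% lower, and on the log2 of the −log10 p 51 and 42 (54.8%), where 6.83% and 3.68% were. On each scale the shares of the lncRNA promoters, such as 25.6% lower on summit reads, are to be read against these. The median of all shared regions moved with the scale as well, from −0.189 on summit reads to 0.171 on ranks, and the median of the lncRNA promoters was below it on all 5 scales. On every scale 22 regions were called higher, and 5 lower, among those called in the main comparison. The sign of the difference was kept on all 5 scales at 28 of the 29 higher regions and 15 of the 15 lower regions, the exception being Gm31774.

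**Figure D2:**
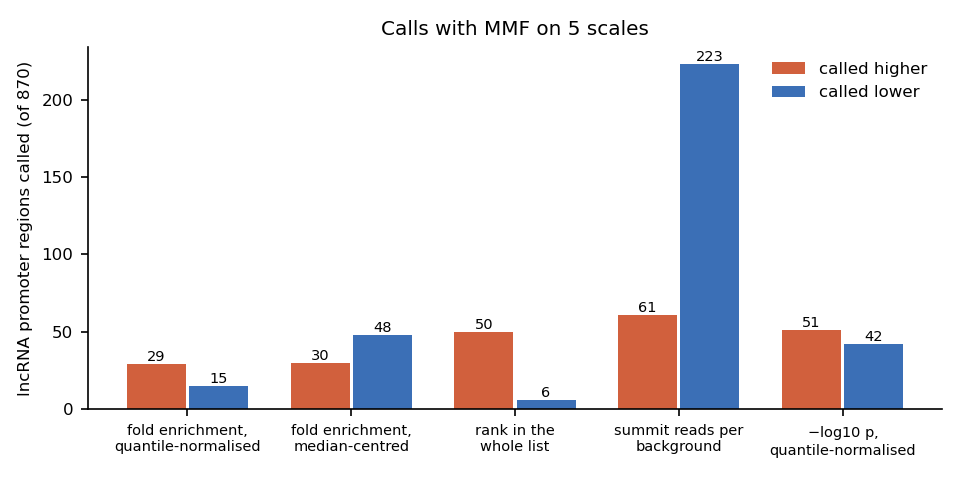
Number of shared lncRNA promoter regions (of 870) called higher or lower with MMF on 5 measurement scales, as bars. The higher calls run from 29 to 61 and the lower calls from 6 to 223, so the balance between them is set by the scale.

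The calls also rested on few samples. Without Control replicate 1, 2 or 3 there were 14, 16 or 13 higher calls and 9, 4 or 5 lower calls. Without MMF replicate 1, 2 or 3 there were 9, 10 or 9 higher calls and 2, 5 or 7 lower calls. The higher calls at Gm22000, Gm44507, Gm47409, Gm48061 and Gm48550, and the lower calls at Gm5533 and AC166748.2, were kept whichever list was left out. In each of the 29 regions called higher every MMF sample had a higher fold enrichment than every Control sample, and in each of the 15 called lower every MMF sample was below. Their fold changes on the normalised scale were 1.12 to 2.37 (median 1.69) among the higher and 1.08 to 2.28 (median 1.66), as a decrease, among the lower. The calls used these same values, so the separation of samples, here and at the named regions, is no support beyond the call. The share of all shared regions separated in this way was not computed. Separation upward also carries the higher fold enrichment as deposited of the MMF samples over all shared regions.

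**Figure D3:**
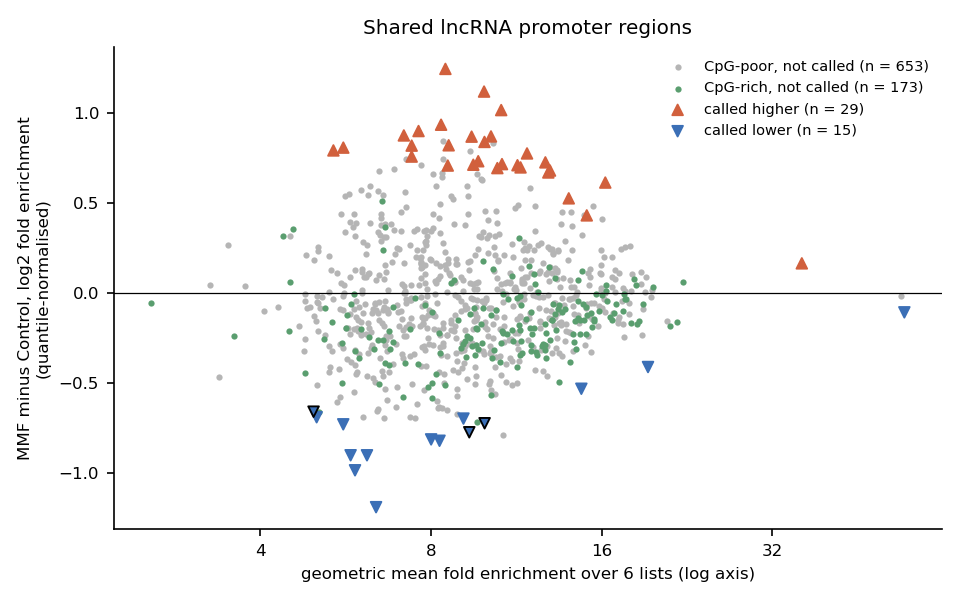
MMF minus Control log2 fold enrichment (quantile-normalised, vertical axis) of each shared lncRNA promoter region against its geometric mean fold enrichment over the 6 lists (log axis), with triangles for called regions, outlined in black where CpG-rich. The 29 higher and 15 lower calls lie at all levels, with 6 higher and 7 lower among the 290 regions of lowest level, 13 and 5 among the middle 290 and 10 and 3 among the highest 290.

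The largest increase was at Gm47409 (chr9:89637414-89637861), an intergenic peak 450 bp upstream of the start of this lncRNA. Its fold enrichment was 4.05, 5.32 and 6.17 in Control replicates 1 to 3 and 13.8, 14.2 and 14.3 in MMF replicates 1 to 3. The MMF samples were close together and all above the Control samples, and the difference was 1.24 ± 0.20 (log2, SE, limma adjusted p = 0.00648). Gm44507 (chr7:98415500-98415885), whose summit lay 44 bp upstream of the start in intergenic DNA, had 5.21, 7.69 and 6.17 in Control and 17.7, 14 and 15.6 in MMF. The lowest MMF sample was well above the highest Control sample, with a difference of 1.12 ± 0.18 (adjusted p = 0.00648). Both calls rested on few Control reads. Summit reads at Gm47409 were 6, 8 and 9 in Control and 36, 29 and 33 in MMF. At Gm44507 they were 8, 12 and 9 in Control and 42, 27 and 32 in MMF.

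The region at Gm48061 (chr10:44589173-44589733) lay in the first kilobase of that lncRNA, in its intron, and the nearest protein-coding start was that of Prdm1 at 130705 bp. Prdm1 encodes Blimp-1, a repressor that acts in plasma cell and myeloid differentiation. Fold enrichment at Gm48061 was 6.94, 8.87 and 5.55 in Control and 16.6, 15.3 and 16.7 in MMF, again without overlap, and the difference was 1.01 ± 0.18 (adjusted p = 0.00798). Summit reads there were 11, 14 and 8 in Control and 39, 29 and 30 in MMF. The region at the Prdm1 promoter itself had a difference of −0.04 and was not called (adjusted p = 0.895).

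Gm48550 (chr13:53969275-53969762, in its own intron) had 9.25, 8.87 and 9.88 in Control and 16.8, 18 and 17.4 in MMF, a difference of 0.72 ± 0.13 (adjusted p = 0.00932). On summit reads this call was lost (adjusted p = 0.0689). Gm22000 (chr11:104565222-104565571), in an intron of Myl4, a myosin light chain gene on the opposite strand, had 7.83, 9.47 and 8.14 in Control and 15.4, 16.9 and 17.3 in MMF. Its difference was 0.77 ± 0.15 (adjusted p = 0.0121), and both regions kept the groups fully apart.

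A member tied to purine synthesis by position was 2310040G07Rik (chr5:76929168-76929691), an antisense lncRNA whose peak lies in an intron of Ppat. Ppat encodes the enzyme of the first committed step of de novo purine synthesis and shares its promoter with Paics, an enzyme of a later step. Fold enrichment at 2310040G07Rik was 14, 12.9 and 11.1 in Control and 20.3, 24.3 and 18.5 in MMF. The 3 MMF samples were the 3 highest, with a difference of 0.61 ± 0.12 (adjusted p = 0.0126), a call that was lost without MMF replicate 2 (adjusted p = 0.0569) and in the fit without trend (adjusted p = 0.0601). The region at the Ppat and Paics promoter had a difference of 0.0015 (adjusted p = 0.996).

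Gm47990 (chr13:38320123-38320730), intergenic and 24680 bp from the start of the BMP ligand gene Bmp6, had 8.64, 10.3 and 10.1 in Control and 16.6, 16.5 and 18.7 in MMF. Its difference was 0.67 ± 0.14 (adjusted p = 0.0176), lost without MMF replicate 3 (adjusted p = 0.0687). Gm40614 (chr10:24133167-24133642), near Stx7 of the endosomal fusion machinery, had 8.41, 12.1 and 8.91 in Control and 16.4, 16.9 and 18.9 in MMF, a difference of 0.68 (adjusted p = 0.0235). This call was lost without any list but Control replicate 2 (adjusted p 0.0540 to 0.0839) and in the fit without trend.

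Gm32688 (chr10:93316852-93317416), 5999 bp from the start of the ETS factor gene Elk3, had 5.78, 5.32 and 6.79 in Control and 12.7, 13.7 and 11.1 in MMF, a difference of 0.82 (adjusted p = 0.0253). Its call was lost without any list but Control replicate 3 (adjusted p 0.0552 to 0.0896). Gm10825 (chr10:22402373-22403009), whose centre has further genomic copies, had 11.3, 12.5 and 9.63 in Control and 17.6, 18 and 17.4 in MMF, a difference of 0.52 (adjusted p = 0.0264). It was lost without any list but Control replicate 2 (adjusted p 0.0585 to 0.0767), on summit reads (adjusted p = 0.0635) and in the fit without trend (adjusted p = 0.0676). In all 4 of these regions the MMF samples were above the Control samples.

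**Figure D4:**
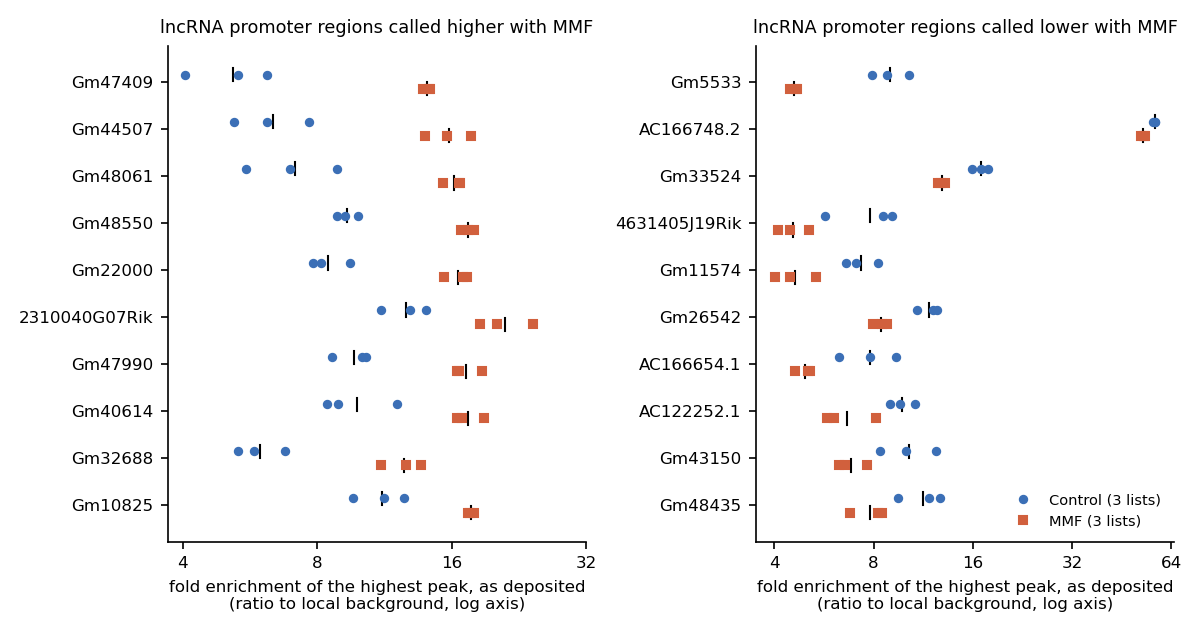
Fold enrichment of the highest peak, as deposited (log axis), in each sample at the 10 lncRNA promoter regions called higher (left) and the 10 called lower (right) with the smallest adjusted p, with Control samples as circles, MMF samples as squares and group means as black ticks. Every MMF point lies above the Control points in the left panel and below them in the right panel, by the least at AC166748.2.

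The clearest decrease was at Gm5533 (chr1:181853078-181853592), an intergenic peak 53 bp upstream of the start and 10956 bp from that of Lbr, which encodes the lamin B receptor of the inner nuclear membrane. Its fold enrichment was 10.2, 8.77 and 7.93 in Control and 4.64, 4.45 and 4.69 in MMF. The groups did not overlap, and the difference was −1.19 ± 0.19 (adjusted p = 0.00595). AC166748.2 (chr19:8252156-8252359), in the intron of a lincRNA, had 57.1, 57.3 and 56.4 in Control and 53.4, 51.6 and 52.7 in MMF. This was the highest fold enrichment among all lncRNA promoters, and the difference was −0.11 ± 0.02 (adjusted p = 0.0086). Its size depended on the scale, with −1.02 on summit reads (adjusted p = 1.61e-21), −0.38 with median centring (adjusted p = 0.00105) and −0.50 on −log10 p (adjusted p = 1.21e-06). It was lost on ranks (adjusted p = 0.992) and without the trend of the spread with level (adjusted p = 0.614). Summit reads at AC166748.2 were 581, 599 and 484 in Control and 412, 368 and 383 in MMF. Its local background was 9.2, 9.48 and 7.6 reads in Control and 6.73, 6.15 and 6.28 in MMF. Reads and background were thus both lower with MMF, and their ratio moved little. The highest fold enrichment of any peak was 65.4 to 65.7 in each of the 6 lists.

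Gm33524 (chr14:70056665-70057664), in an intron of Pebp4 and 20038 bp from the start of the zinc finger gene Egr3, had 17, 17.8 and 15.9 in Control and 13.2, 12.6 and 12.8 in MMF. Its difference was −0.53 (adjusted p = 0.0195), lost without Control replicate 1 or 2 or MMF replicate 1 or 2 (adjusted p 0.0516 to 0.0696), on −log10 p (adjusted p = 0.136) and in the fit without trend (adjusted p = 0.0545). 4631405J19Rik (chr2:93030020-93030424), antisense in an intron of Prdm11, had 9.11, 8.52 and 5.71 in Control and 4.45, 4.09 and 5.11 in MMF. Its difference was −0.99 (adjusted p = 0.0208), lost without the same 4 lists in turn (adjusted p 0.0517 to 0.0825). Control replicate 3 stood close to the MMF samples at 4631405J19Rik, while at Gm33524 the groups were well separated.

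Gm11574 (chr11:97052102-97052689), in an intron of the oxysterol-binding protein gene Osbpl7, had 6.60, 8.24 and 7.08 in Control and 4.02, 4.46 and 5.37 in MMF, a difference of −0.90 (adjusted p = 0.0227). It was lost without Control replicate 2 or MMF replicate 1 or 2 (adjusted p 0.0563 to 0.0998). AC166654.1 (chr17:31789118-31789605), intergenic and 66442 bp from the start of the kinase gene Sik1, had 7.81, 6.29 and 9.36 in Control and 5.05, 5.14 and 4.62 in MMF. Its difference was −0.90 (adjusted p = 0.025), lost without any list but Control replicate 2 (adjusted p 0.0527 to 0.0862). At both the MMF samples were below all Control samples.

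AC122252.1 (chr17:26538118-26538389), in an intron of Dusp1, whose product removes phosphate from MAP kinases, had 10.7, 9.62 and 8.98 in Control and 5.79, 8.12 and 6.07 in MMF. Its difference was −0.81 (adjusted p = 0.0309), lost without any list but MMF replicate 2 (adjusted p 0.0613 to 0.106). It was also lost on ranks (adjusted p = 0.0974) and on summit reads (adjusted p = 0.0528), and the groups overlapped in summit reads per background. Gm43150 (chr5:149428190-149429113) had 8.36, 10.0 and 12.3 in Control and 6.27, 7.62 and 6.56 in MMF, a difference of −0.82 (adjusted p = 0.0335). This was lost without any list but Control replicate 1 (adjusted p 0.0617 to 0.11) and on ranks (adjusted p = 0.0901). In both the highest MMF sample came close to the lowest Control sample.

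No promoter of a neighbouring coding gene was called beside the lncRNA promoters called here, but such calls were rare at all coding promoters. Of 11177 shared ones, 0.367% were called higher and 2.11% lower. The 0 calls below therefore cannot show whether neighbours change together. The nearest protein-coding gene had a shared region at its own start for 17 of the 29 higher members and 9 of the 15 lower members. Among the 17, 5 differences were above 0 and 12 below (median −0.05), and among the 9, 4 were above and 5 below (median −0.078), with 0 called in either set at the limma adjusted p. At an unadjusted p below 0.05 there were 0 of the 17 and 1 of the 9, which was lower. Over all 606 shared lncRNA promoters with such a neighbour, 0 coding promoters were called higher (8 at an unadjusted p below 0.05) and 8 lower (114 at an unadjusted p below 0.05), with a median of −0.185.

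The higher calls fell on CpG-poor promoters, as nearly all did outside lncRNA promoters. A region was named CpG-rich when the 500 bp around its summit had a CpG observed to expected ratio of at least 0.6 and a GC content of at least 50%. Of 176 CpG-rich shared promoters, limma called 0 higher (1 at an unadjusted p below 0.05) and 3 lower (30), with 26 differences above 0, 150 below and a median of −0.18. As deposited, their median fold enrichment overlapped between groups, at 10.4 to 11.7 in Control and 10.6 to 11.3 in MMF. At CpG-poor shared lncRNA promoters it was 8.15 to 8.63 in Control and 9.54 to 10.6 in MMF. The differences below 0 are thus relative to the other shared regions. Of 694 CpG-poor shared promoters, 29 were called higher (4.18%) and 12 lower (1.73%), with a median of −0.035, and 79 and 78 passed an unadjusted p of 0.05. All 29 higher calls were thus CpG-poor, and 0 CpG-rich lncRNA promoters were called higher on any of the 5 scales, while the CpG-rich lower calls ranged from 0 on ranks to 107 on summit reads. Other regions had the same pattern, with 6 of 9707 CpG-rich shared ones called higher (0.0618%) and 2.16% lower. Of 30546 CpG-poor shared ones among them, 5.16% were higher and 1.07% lower. Between 127 and 151 of the 176 CpG-rich promoters lay below the median of all shared regions, depending on the scale.

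The CpG-rich promoters of protein-coding genes gave like values, with 0 of 8661 called higher, 195 lower and a median of −0.165. CpG-poor promoters of protein-coding genes had 41 higher and 41 lower of 2516. CpG-rich regions made up 17.8% to 19% of the lncRNA promoters with a peak in the Control lists and 15.1% to 16.1% in the MMF lists (18.2 ± 0.707 against 15.5 ± 0.498, SD, n = 3 each, exact permutation p = 0.1). Of 298 CpG-rich lncRNA promoters 3 were gained (1.01%), and of 1713 CpG-poor ones 88 (5.14%). Among other regions these shares were 0.51% and 6.74%.

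The 3 CpG-rich promoters called lower were Gm26542, Gm48435 and Zmiz1os1, the last of them named after its values were seen. Gm26542 (chr11:50236551-50237165), in an intron of the leukotriene C4 synthase gene Ltc4s, had 10.8, 12.1 and 12.5 in Control and 8.46, 8.81 and 7.94 in MMF, a difference of −0.72 (adjusted p = 0.0248). Gm48435 (chr10:121351002-121351600), in its own exon, had 9.48, 11.7 and 12.7 in Control and 6.77, 8.47 and 8.23 in MMF, a difference of −0.77 (adjusted p = 0.0342). Zmiz1os1 (chr14:25457600-25457948), 1450 bp from the start of the transcriptional coactivator gene Zmiz1, had 5.92, 6.35 and 4.97 in Control and 4.40, 4.39 and 4.16 in MMF, a difference of −0.66 (adjusted p = 0.0446). All MMF samples were below all Control samples, but none of these calls held on ranks. The call at Gm26542 was kept only without Control replicate 1, as was that at Gm48435 (adjusted p up to 0.0796 and 0.11 without another list), and that at Zmiz1os1 was lost whichever list was left out.

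**Figure D5:**
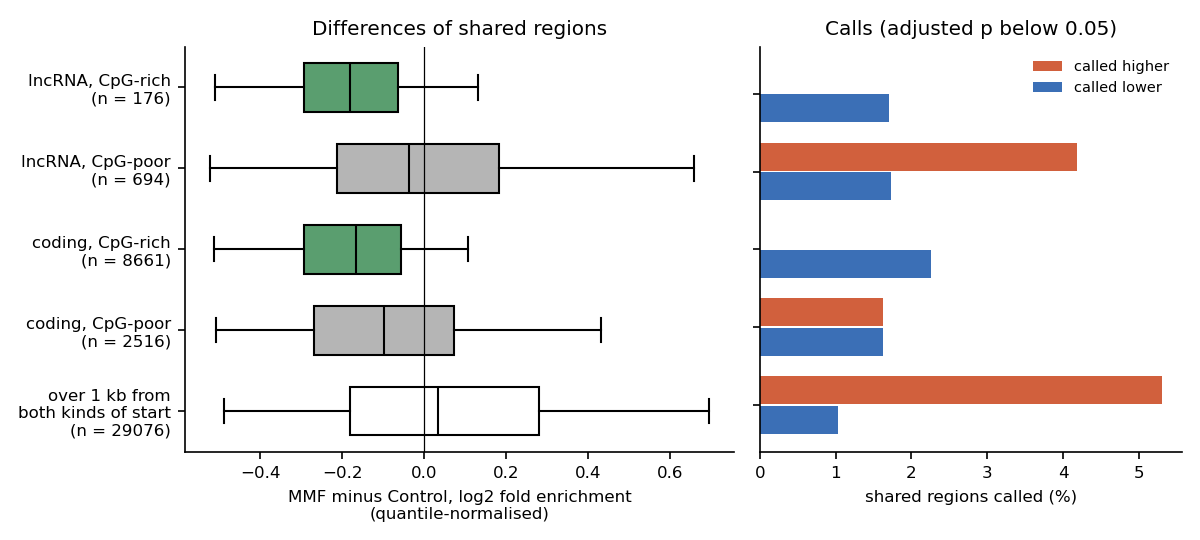
Differences of shared regions (left, MMF minus Control log2 fold enrichment, quantile-normalised, by class) with boxes from the lower to the upper quartile, a line at the median and whiskers to the 5th and 95th percentiles, and percent of shared regions called higher or lower (right, bars). CpG-rich lncRNA promoters have a median of −0.18 and 0 higher calls, and CpG-poor lncRNA promoters have a median of −0.035 with 4.18% higher and 1.73% lower.

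Position and type of the lncRNA were set beside the calls as a description. The shares over all shared regions, 3.92% higher and 1.34% lower, and over those away from both kinds of start, 5.3% and 1.04%, stand as the background for these counts. Shared lincRNA promoters had 19 higher (3.77%) and 6 lower (1.19%) of 504, and shared antisense promoters 6 higher (2.61%) and 7 lower (3.04%) of 230. The processed_transcript class had 3 higher and 1 lower of 114, the sense_intronic class 1 and 1 of 19, and the bidirectional class 0 and 0 of 3. Over 50 kb from any coding start, 14 were higher (4.93%) and 2 lower of 284, between 5 and 50 kb 13 (2.77%) and 10 of 470, and between 1 and 5 kb 2 (1.72%) and 3 of 116. Regions that held an annotated lncRNA start had 11 higher (2.06%) and 10 lower (1.87%) of 535, and those that held none 18 higher (5.37%) and 5 lower (1.49%) of 335. Inside coding genes there were 8 of each (3.24%) among 247, and outside 21 higher (3.37%) and 7 lower (1.12%) among 623.

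Motif letters at the summits were counted in the 200 bp windows, on both strands, with AP-1 as TGANTCA, C/EBP as TTGCNNAA, PU.1 as GAGGAAGT, RUNX as AACCACA, NF-Y as CCAAT, KLF as CCACNCCC, ETS as CCGGAAGT, YY1 as AAGATGGCG and the TATA box as TATAAA. CTCF was searched by its usual consensus. These factors are regulators of myeloid cells (C/EBP, PU.1, RUNX, AP-1), general promoter factors or, for CTCF, an organiser of chromatin loops. Over all 112672 regions, 16.1% held AP-1 letters, 15.0% C/EBP, 8.29% PU.1, 10.7% RUNX, 23.5% NF-Y, 8.88% KLF, 1.3% ETS, 0.724% YY1, 7.33% TATA and 5.96% CTCF. Of the 29 lncRNA promoters called higher, 11 held AP-1 letters, 10 RUNX, 7 C/EBP, 6 PU.1, 3 NF-Y, 3 KLF, 2 TATA, 1 CTCF and 0 ETS or YY1. Of the 15 called lower, 3 held AP-1, 3 KLF, 2 RUNX, 2 NF-Y, 1 PU.1 and 0 C/EBP, TATA, CTCF, ETS or YY1. A match describes letters only and is no binding site.

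Among the 694 shared CpG-poor lncRNA promoters, 10 of 79 with RUNX letters were called higher (12.7%) against 3.09% of those without. With AP-1 letters it was 11 of 141 (7.80%) against 3.25%, with PU.1 letters 6 of 75 (8%) against 3.72%, and with C/EBP letters 7 of 116 (6.03%) against 3.81%. With CTCF letters 1 of 70 was called higher (1.43%) against 4.49%, and with NF-Y letters 3 of 173 (1.73%) against 4.99%. In all shared CpG-poor regions the corresponding shares were 6.18% with and 4.98% without RUNX letters, 4.35% and 5.35% for AP-1, 6.23% and 5.01% for PU.1, 8.64% and 4.38% for C/EBP, 0.545% and 5.55% for CTCF and 5.49% and 5.04% for NF-Y. The differences between lncRNA promoters and other regions in these shares were not tested.

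Among the 6 lncRNA promoters strongest in Control 1 was called higher and 2 lower, but these calls depended on the scale. Choosing them on Control values alone biases their differences downward, so they are given as values only. Of the 290 shared lncRNA promoters of highest level over all 6 lists, 10 were called higher and 3 lower. The 6 of highest mean fold enrichment in Control were AC166748.2, Gm15564, Gm31774, Gm33195, Gm31812 and Gm49472. Gm15564 (chr16:35981538-35981896), in an intron of the nuclear import receptor gene Kpna1, had 54.6, 55.3 and 54.0 in Control and 53.3, 52.6 and 53.5 in MMF, a difference of −0.02 (adjusted p = 0.597). It was called lower with median centring (−0.30, adjusted p = 0.00191) and on summit reads (−0.55, adjusted p = 1.76e-17). Its local background of 42.8 reads in Control replicate 1 was far above the 0.729 expected over the genome there, and it has a further genomic copy. At AC166748.2 that background was 9.2 reads.

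Gm31774 (chr8:117747780-117747979), in an intron of the steroid dehydrogenase gene Hsd17b2, had 34.2, 33.8 and 34.8 in Control and 40.1, 35.9 and 37.9 in MMF, a difference of 0.16 (adjusted p = 0.0402). Its sign turned with median centring (−0.12, adjusted p = 0.187) and on summit reads (−0.19, adjusted p = 0.22), and without Control replicate 1 or 2 or MMF replicate 1 or 3 the call was lost (adjusted p 0.106 to 0.136). It was also lost on ranks (adjusted p = 0.334), on −log10 p (adjusted p = 0.113) and in the fit without trend (adjusted p = 0.45). Gm33195 (chr13:43864363-43865083), 79948 bp from the start of the dendritic cell marker gene Cd83, had 21.6, 21 and 25.3 in Control and 21.2, 21 and 20.7 in MMF (−0.16, adjusted p = 0.261), but was called lower with median centring (−0.37, adjusted p = 0.025) and on summit reads (−0.65, adjusted p = 0.000106). Gm31812 (chr1:52113402-52114082), in an exon of the lncRNA gene Gm28177, had 24.3, 20.4 and 21.8 in Control and 22.1, 19.5 and 19.3 in MMF (−0.18, adjusted p = 0.188), and was likewise called lower with median centring (−0.39, adjusted p = 0.0156) and on summit reads (−0.70, adjusted p = 1.76e-05). The fold enrichments of Control and MMF samples overlapped at both.

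Gm49472 (chr15:87967898-87968161) had 19.7, 24.9 and 21 in Control and 17.3, 15.8 and 18.5 in MMF, a difference of −0.41 (adjusted p = 0.0369), lost without Control replicate 2 or 3 or MMF replicate 1 or 2 (adjusted p 0.0811 to 0.138) and in the fit without trend (adjusted p = 0.141). Its centre has 837 further copies in the genome, so the place of its reads is uncertain.

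Of 6 lists of genes, 5 named well-known lncRNAs and the last named coding regulators. Of 79 genes named in the 5, 37 had a region here, 10 were not in the annotation, 21 had no region near a start, and at 11 all regions were near a coding start. The annotation types Snhg11 and 5730596B20Rik as protein_coding and Gm6637 as processed_pseudogene, so these could not give a region under the rule. Together with regions nearest a blood or MLL-AF9 regulator, the lists held 79 regions, 48 of them shared. Of the 48, 0 were called higher or lower by limma on the main scale, where 3.92% and 1.34% of all shared regions were, 5 had an unadjusted p below 0.05, 10 differences were above 0 and 38 below, and the median was −0.096 against −0.040 over all shared regions.

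Hosts of small RNAs had the most shared regions of the lists, with regions at 15 of 26 genes and 15 shared regions, 13 of them CpG-rich. All 15 differences were below 0, with a median of −0.109, 0 called and 2 at an unadjusted p below 0.05. On ranks, however, 9 were above 0 and 6 below, with 12 of 15 below the median of all shared regions, and on summit reads 12 of the 15 were called lower, where 25.3% of all shared regions were. That share was 60.8% at CpG-rich lncRNA promoters and 67.2% at CpG-rich coding promoters. Mir142hg (chr11:87755314-87755741), host of a microRNA specific to blood cells, came closest, with 3.74, 3.78 and 3.75 in Control and 3.32, 3.40 and 2.53 in MMF (−0.47, adjusted p = 0.0684). It was called lower with median centring (−0.56, adjusted p = 0.0181), on summit reads (−0.89, adjusted p = 8.76e-08) and on −log10 p (−1.22, adjusted p = 0.00513). The MMF samples were all below the Control samples. At Mir17hg (chr14:115041804-115042655), host of an oncogenic microRNA cluster, the values were 5.65, 5.95 and 5.01 in Control and 5.60, 6.04 and 5.89 in MMF (adjusted p = 0.539), with overlap.

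At Mir155hg, host of an inflammatory microRNA, the values were 12.0, 14.9 and 12.3 in Control and 13.7, 11.3 and 14.8 in MMF (adjusted p = 0.568). The snoRNA host Snhg5 had 15.9, 15.8 and 15.8 in Control and 16.6, 15.0 and 16.1 in MMF (adjusted p = 0.579). Snhg12, also a snoRNA host, had 9.45, 12.2 and 10.5 in Control and 11.3, 9.61 and 8.79 in MMF (adjusted p = 0.203). The groups overlapped in all 3. The remaining shared regions of the list were at Snhg3, Snhg6, Snhg8, Snhg15, Snhg17, Snhg20, Mir22hg and Dleu2, with adjusted p from 0.218 to 0.96.

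Among nuclear and abundant lncRNAs, 7 of 13 genes had a region within 1000 bp, that of Neat1 being nearer to another lncRNA start and counted there, and the other 6 had 8 shared regions, with a median of −0.148, 2 differences above 0, 0 called and 1 at an unadjusted p below 0.05. Of the 8, 4 were CpG-rich, and on summit reads 5 were called lower. On that scale 25.3% of all shared regions and 60.8% of CpG-rich lncRNA promoters were. Malat1, the abundant RNA of nuclear speckles, had a region at its start (chr19:5802316-5802847) with 5.41, 6.10 and 5.55 in Control and 6.17, 7.97 and 5.85 in MMF (−0.06, adjusted p = 0.87). Firre (chrX:50635071-50635670), which shapes nuclear organisation, had 9.94, 8.70 and 11.4 in Control and 8.38, 9.80 and 7.75 in MMF (−0.48, adjusted p = 0.137). Dancr, known for holding back differentiation, had 17.8, 15.9 and 19.7 in Control and 19.8, 18.8 and 18.9 in MMF (0.04, adjusted p = 0.822), but was called lower on summit reads (−0.43, adjusted p = 0.00662). The samples of the groups overlapped at Malat1, Firre and Dancr.

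X-inactivation and imprinted lncRNAs had regions at 6 of 13 genes, and 4 of their 9 regions were shared. All 4 had a difference below 0 (median −0.169), with 0 called and 0 at an unadjusted p below 0.05. On summit reads all 4, of which 2 were CpG-rich, were called lower. There 25.3% of all shared regions and 60.8% of CpG-rich lncRNA promoters were. Kcnq1ot1, which silences an imprinted domain, had 17.8, 12.5 and 15.1 in Control and 16, 14 and 17.2 in MMF (adjusted p = 0.824). Jpx and Ftx, which lie beside Xist and promote its expression, gave adjusted p of 0.41 and 0.561, and Peg13 gave 0.315. Control and MMF overlapped at all 4. HOX-cluster lncRNAs run among the HOX genes, which the study names as targets of MLL-fusion proteins and of which it measured Hoxa9. Of 15 listed, 12 in the annotation (5730596B20Rik there as protein_coding), only Hoxd3os1 had a region under the rule. It lies in introns of Hoxd3 and Hoxd4, not in the cluster of Hoxa9. Hoxd3os1 had 9.83, 7.69 and 13.3 in Control and 13.6, 13.6 and 9.62 in MMF (0.06, adjusted p = 0.875), so that the groups overlapped.

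Immune and p53-linked lncRNAs had regions at 8 of 12 genes, with 8 shared, 0 called, 1 at an unadjusted p below 0.05 and a median of −0.054. The shared region counted at Gm26917 has its summit within an annotated ribosomal RNA gene. A further region, at Mirt2, was gained, with 4.03, 4.0 and 3.14 in the MMF lists. Pvt1, beside the oncogene Myc, had 9.29, 8.65 and 7.67 in Control and 10.9, 9.60 and 14.5 in MMF (0.18, adjusted p = 0.612), so that all MMF values as deposited were above the Control values while the normalised difference did not pass. Trp53cor1, a p53-induced RNA upstream of Cdkn1a, had 9.89, 13.2 and 9.67 in Control and 12.0, 11.1 and 13.5 in MMF (adjusted p = 0.881). Ptgs2os2, next to the cyclooxygenase gene Ptgs2, had 18.6, 16.3 and 16.6 in Control and 18.8, 17.8 and 16.3 in MMF (adjusted p = 0.789). Both had overlapping groups.

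The regions nearest a blood or MLL-AF9 regulator belonged to 15 of 55 such regulators. Of 28 regions, 13 were shared and 0 were called, 1 having an unadjusted p below 0.05, with a median of −0.043, 6 differences above 0 and 7 below. Gm26577, near Myb, a transcription factor on which this leukemia depends, had 5.31, 7.74 and 5.71 in Control and 4.89, 5.88 and 3.95 in MMF (−0.60, adjusted p = 0.106). Gm26626 and Gm49723, both near Runx1, had differences of −0.46 (adjusted p = 0.232) and −0.30 (adjusted p = 0.418). 2310067P03Rik, nearest to Mef2c, had 16.8, 16.9 and 17.5 in Control and 22.4, 16.3 and 16.5 in MMF (0.01, adjusted p = 0.967), where MMF replicate 1 alone stood high. The groups overlapped at Gm26577 as well. Gm13467, near Zeb2, a repressor needed in hematopoietic differentiation, was gained, with 7.86, 7.03 and 5.96 in the MMF lists.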

How the data were processed

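ATAC-seq was performed by the authors on 3 Control and 3 MMF samples. Per the labels and the methods, reads were quality-checked with FastQC, trimmed with Trim Galore, mapped to mm10 with Bowtie2, and peaks were called on each sample with MACS2, so replicates were not pooled. The tools' versions and options are not given in the sources used here. The deposited lists give for each peak a fold enrichment, a ratio of summit reads to local background, and −log10 p and −log10 q values as computed by the authors. The score column of the deposited lists repeats the p and was not used. The smallest −log10 p was 3.01 to 3.02 and the shortest peak 150 bp. The reads, the authors' differential peaks and other chromosomes were not used here.

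Peaks were merged when they overlapped, and a sample held a region when a peak of it lay in the region. The highest peak per sample and region gave the fold enrichment. No further pseudocount was added to the fold enrichment, since every deposited value was above 0. Shared regions were fitted with limma 3.58.1 in R 4.3.3 (lmFit, eBayes with trend, two-sided, no block, Benjamini-Hochberg). Summit reads and background were solved from the fold enrichment and the Poisson p, which gave whole reads for 100% of peaks within a relative tolerance of 0.001. Weak peaks rest on few reads, and presence calls carry the threshold of the peak caller. On simulated data for this comparison (41123 regions), 95% of 100 regions changed by a log2 of 1 were recovered and 41% of 100 changed by 0.5. The simulated noise was Gaussian with the median spread of each level, so regions of larger spread were not represented. Recovery may be lower in the real data. Sequences came from GRCm38 (RefSeq) with pysam 0.24.0, further copies of the 100 bp around a summit from blastn 2.17.0, and starts from all transcripts of the GENCODE M21 basic annotation. Scripts used Python 3.11.15, pandas 2.3.3 and scipy 1.17.1.

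Named regions were the 10 called higher and the 10 called lower of smallest adjusted p, the 6 gained and lost of highest mean fold enrichment, the 6 of highest fold enrichment in Control, and those at genes of the fixed lists. Members, lists and tests were chosen with earlier results of these data known. Alternatives covered the measure, normalisation, pseudocount, trend, block, q threshold, list length, overlap, distance rules and each sample left out.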

Additional observations from a re-analysis of the deposited data

How the results depend on the processing

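Counts below are of lncRNA promoters called higher, called lower, gained and lost, followed by the median log2 difference, 29, 15, 91, 2 and −0.078 in the main comparison. Median centring gave 30 higher, 48 lower and a median of −0.134, ranks gave 50, 6 and 0.143, summit reads 61, 223 and −0.227, and −log10 p 51, 42 and −0.098. A pseudocount of 1 added to the fold enrichment gave a median of −0.068, and a fit without trend 14 higher. Lists of equal length gave 23 lower, 21 gained and 21 lost, and peaks trimmed around their summits gave 6 lost. Within 500 bp of a start there were 15 higher, 52 gained and a median of −0.089, and over 5 kb from every coding start the median was −0.063. Without members that have another genomic copy, an alternative chosen after seeing the data, 1 was lost. Leaving out each sample gave 9 to 16 higher, 2 to 9 lower, 108 to 155 gained, 3 to 7 lost and a median of −0.085 to −0.069. Fewer samples and a relaxed presence rule follow from that construction, and for the other settings the cause was not tested. Among named members called in either setting, the sign turned at Gm31774 with median centring (−0.117) and on summit reads (−0.187), and at Dancr on summit reads (−0.426). Signs of uncalled members turned more often.

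Control and MMF samples share replicate numbers, but same-numbered samples correlated in their deviations at only 0.0083, 0.0030 and 0.0056 over 41123 regions, so the numbers were not read as pairs, although each sample correlated best with its own number. With the replicate number as a block, 26 were called higher and 11 lower, with a median of −0.078. The lists hold called peaks only, so a change at a region below the threshold of the peak caller was not detectable.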

Other observations

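Gm26917 (chr17:39842968-39848815) is a lincRNA whose region spans 5848 bp and overlaps an annotated ribosomal RNA. The summit lay 2566 bp from the Gm26917 start, in an intron of the ribosomal RNA gene CT010467.1 and in exons of the lincRNA genes Gm42418 and AY036118. The values below therefore may not describe the promoter of Gm26917. Fold enrichment of the region was 2.54, 2.54 and 2.59 in Control and 2.63, 2.58 and 2.55 in MMF, with overlapping groups (limma adjusted p = 0.733). On log2 summit reads per genome-wide background the same region was lower with MMF, with a difference of −0.65 (adjusted p = 1.41e-26), where the median over all shared regions was −0.189.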
